A study of Caenorhabditis elegans with 2 samples.

Results

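The gene ppfr-1 (F16A11.3) of Caenorhabditis elegans held 7 of the 1604 regions that passed the reproducibility threshold in a ChIP-seq experiment on a GFP-tagged zinc finger protein. ChIP-seq sequences the DNA that is co-precipitated with a protein, so that a region with many fragments marks a place where the protein, or something attached to it, lay on the chromosome. A region was assigned to the gene when its summit, the position of its highest signal, fell inside ppfr-1 or within 5 kb of either end. By this rule the locus held 7 of 1604 regions of the optimal list, 20 of 29629 regions of the relaxed pooled list, 19 of 29577 of replicate 1 and 23 of 28681 of replicate 2. The gene was chosen by measured values, the scores and the number of its optimal regions, so both are given below as a description, with no test.

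The samples were 2 biological replicates of 1 group, and both came from strain OP608, which carries the unc-119(tm4063) mutation and the integrated transgene wgIs608. That transgene expresses Y55F3AM.14::TY::EGFP::3xFLAG, a C-terminal fusion, and a wild-type unc-119 rescue marker, unc-119(+). Larvae of both sexes were starved at L1 after bleaching and collected whole at the L2 stage, at 42 hours. Chromatin was sonicated to 200 to 800 bp and precipitated with an antibody against GFP. The annotation calls Y55F3AM.14 znf-782, a gene for a C2H2 zinc finger protein. All tissues of the larva were mixed, so the values are averages over its cells, and the tagged protein was made from a transgene. No untagged group and no library of another factor was used here, so whether the regions are particular to the tagged protein was not tested.

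ppfr-1 encodes a regulatory subunit of protein phosphatase 4, a serine/threonine phosphatase that acts with different regulatory partners in cell division and DNA repair. In the C. elegans embryo, PPFR-1 acts with the catalytic subunit PPH-4.1 on MEI-1, the katanin subunit that severs microtubules of the meiotic spindle. The introns of ppfr-1 also contain genes for small and non-coding RNAs, among them the microRNAs mir-71, which is known for its part in adult lifespan and stress resistance, and mir-2, a member of an invertebrate microRNA family. Introns are transcribed and then removed, and they can contain enhancers and start sites of nested genes. Each of these possibilities concerns only where such elements can lie, since ChIP-seq gives positions and not activity.

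ppfr-1 lay on the minus strand of chromosome I, at I:9364099-9389982 of build ce11 (WBcel235), and was 25884 bp long. Its 4 annotated transcripts had 26 exons when overlapping exons were merged, and these covered 20.8% of the gene. Most of the rest was in 2 long introns separated by a short exon. The upstream long intron (I:9382631-9388004) had 5374 bp and the downstream one (I:9372068-9382471) had 10404 bp, together 61.0% of the gene, while the next longest intron had 812 bp. Of the 12 annotated non-coding genes that lay within ppfr-1, 11 lay within or across the edge of these introns.

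All 7 optimal regions had their summit in the long introns, 3 in the upstream one and 4 in the downstream one, and 0 in an exon. They are numbered here from the 5′ end of the gene. Region 1 had its summit at 9383907 in the interval I:9383695-9384118. Regions 2 and 3 were 2 summits, at 9383229 and 9382989, in the same interval, I:9382817-9383294. Regions 4 and 5 likewise shared the interval I:9381066-9381968, with summits at 9381679 and 9381479. Region 6 had its summit at 9380341 (I:9380129-9380552) and region 7 at 9373221 (I:9373009-9373432). The 7 summits thus stood for 5 distinct intervals.

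The summits were far from the promoter. The nearest was 6075 bp inside the gene, counted from its 5′ end, and 5677 to 6075 bp from the annotated starts of the 4 transcripts. The pooled list held no summit in the gene before that point. The distances from the 5′ end were 6075, 6753, 6993, 8303, 8503, 9641 and 16761 bp for regions 1 to 7. The successive gaps were 678, 240, 1310, 200, 1138 and 7120 bp, so that regions 1 to 6 formed a group of 3566 bp across the short exon and region 7 stood apart. The distance from each summit to the nearest exon ranged from 359 bp for region 3 to 2131 bp for region 6.

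**Figure D1:**
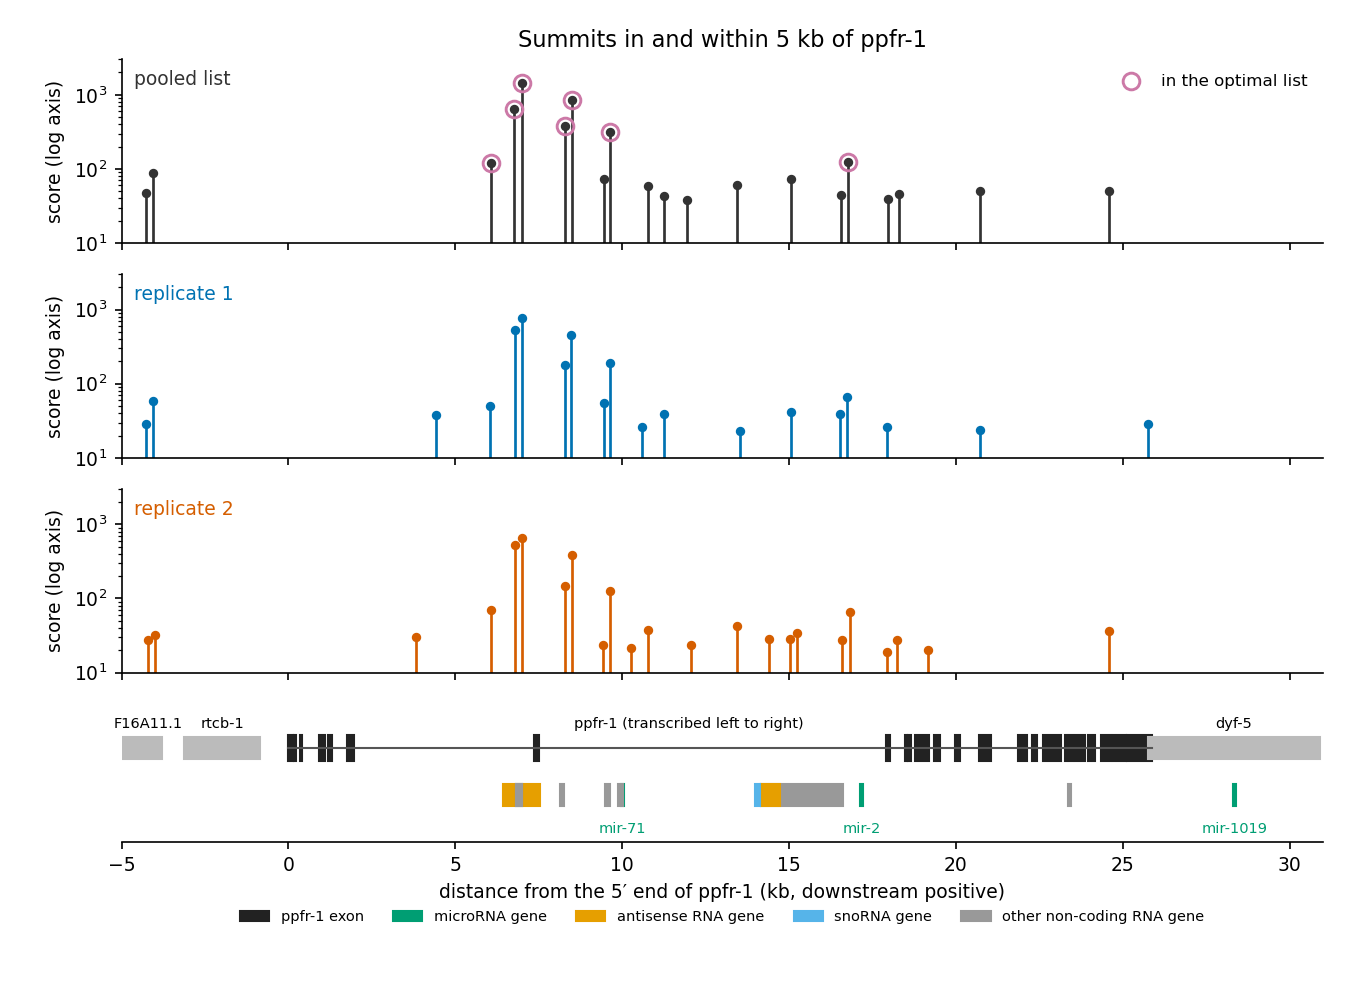
Scores (caller's signal value, log axis) of all summits in and within 5 kb of ppfr-1 against the distance from its 5′ end in kb, for the pooled list and each replicate, above a map of exons, nested non-coding genes and neighbouring genes. The 7 circled summits are the optimal regions, and 6 of them lie between 6075 and 9641 bp in all of the 3 lists, give or take the small shifts of the replicate summits.

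Region 3 was the strongest of the locus and the second of the whole optimal list. The score is the authors' caller's signal value for a region. That of region 3 was 1438 for the pooled reads, 779.2 for replicate 1 and 657.3 for replicate 2, and it ranked second in each of these lists. Its summit was at the same base in all of them. In the pooled ranking it stood between a region next to scpl-3 (score 1466), which encodes a protein with a phosphatase domain of the FCP1 type, and a region next to rpl-3 (1052), a gene for a protein of the large ribosomal subunit.

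Region 5 was next in the pooled list, with a score of 839.8 and rank 4. Its scores were 458.6 (rank 6) in replicate 1 and 382.1 (rank 5) in replicate 2, with summits 28 and 3 bp from the pooled one. Relative to region 3 it stood at 58.4% with pooled reads, 58.9% in replicate 1 and 58.1% in replicate 2. The ratio of these 2 summits was therefore nearly the same in each list.

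Region 2 had a pooled score of 639.6 (rank 19), and scores of 522.3 (rank 4) in replicate 1 and 530.5 (rank 3) in replicate 2. In both replicates it ranked above region 5, and in the pooled list below it. Its replicate summits lay 24 and 38 bp from the pooled summit, both toward region 3. Its share of the score of region 3 was 44.5% with pooled reads, against 67.0% in replicate 1 and 80.7% in replicate 2.

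Regions 4 and 6 were weaker, with pooled scores of 378.0 (rank 76) and 311.5 (rank 136). Region 4 scored 180.6 in replicate 1 and 146.3 in replicate 2, and region 6 scored 188.1 and 126.7. The ranges over the replicates overlap, and region 6 was the higher of the pair in replicate 1 only. Both were nevertheless within the highest 200 regions of each replicate list, at ranks 107 to 194.

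Regions 1 and 7 were the weakest members, with pooled scores of 120.5 (rank 1318) and 122.4 (rank 1273). Region 1 scored 50.9 in replicate 1 (rank 3034) and 69.1 in replicate 2 (rank 881). Region 7 scored 66.2 (rank 1469) and 65.4 (rank 994). Both sat near the end of the optimal list, whose lowest score was 110.35 while the next pooled region outside it had 110.33. The highest score of the locus outside the optimal list was 87.96.

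The order of the 7 scores was thus stable over the replicates at the top and not below it. Region 3 was above region 2, region 2 above region 5, and region 5 above regions 4 and 6, with replicate ranges that did not overlap. The pair 4 and 6 overlapped, as did the pair 1 and 7. The score in replicate 1 divided by that in replicate 2 was highest for region 6 (1.48) and lowest for region 1 (0.736), and the others had 0.985 to 1.23. The median ratio over the 1517 optimal regions found in both replicates was 1.20, with 0.700 and 2.02 as the 5th and 95th percentiles, so that all 7 were inside that range, region 6 at the 76.3 percentile and region 1 at the 6.92 percentile. The lists give no read totals, so scores of the replicates are set side by side as deposited and are not scaled to depth.

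**Figure D2:**
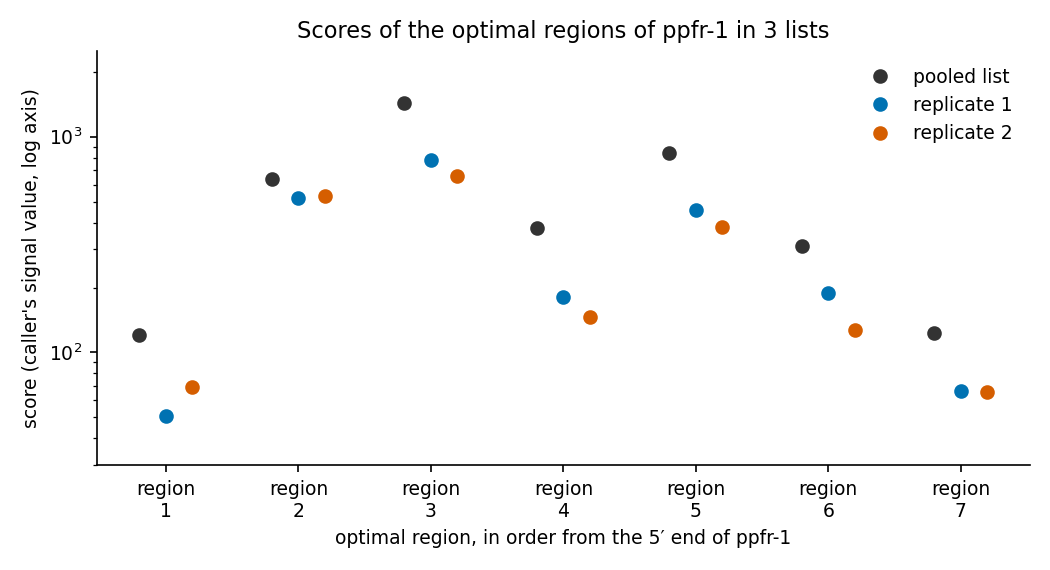
Score (log axis) of the 7 optimal regions in the pooled list and in each replicate, with regions in order from the 5′ end of ppfr-1. Region 3 is highest in every list (1438, 779.2 and 657.3), region 2 is above region 5 in both replicates and below it in the pooled list, and regions 1 and 7 are lowest.

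The pooled score of an optimal region was nearly always the sum of its replicate scores, a relation that was examined after the values had been seen. Over the 1517 regions the pooled score divided by the sum had a median of 1.00, with 0.939 and 1.08 as the 5th and 95th percentiles. Regions 1, 3, 5 and 6 had ratios of 0.990 to 1.00, and region 7 had 0.930. Region 4 had 1.16, at the 98.1 percentile. Region 2 had 0.607, since its replicate scores added up to 1053 and its pooled score was 639.6, and only 1 of the 1517 regions had a lower ratio. Regions 2 and 4, the members farthest from a ratio of 1, were the weaker summits of the shared intervals. How the caller divides signal between adjoining summits is not stated by the sources used here, and its part in these values was not tested.

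**Figure D3:**
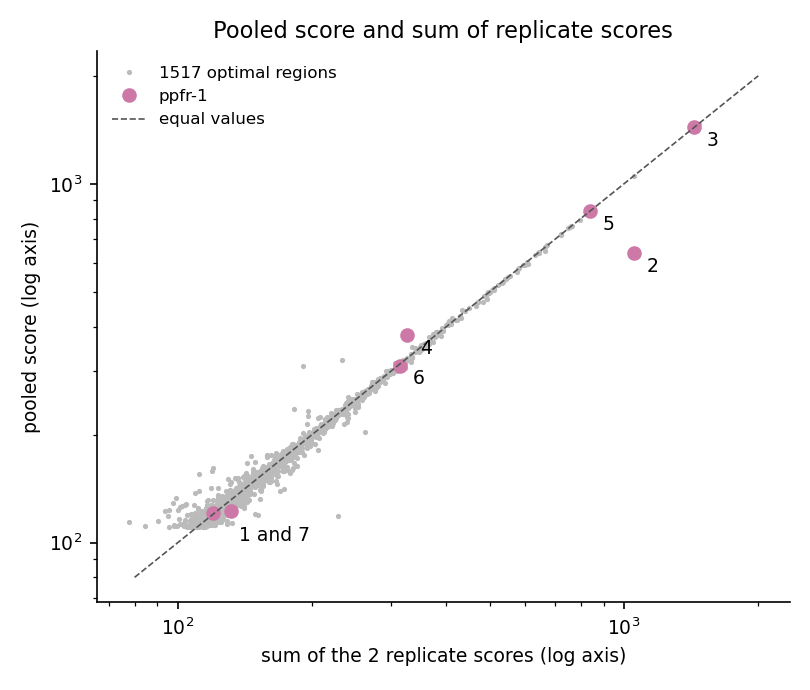
Pooled score against the sum of the 2 replicate scores (both axes log) for 1517 optimal regions found in both replicates (grey) and the 7 of ppfr-1 (pink, numbered); the dashed line marks equal values. Region 2 lies below the line (639.6 against a sum of 1053), region 4 slightly above it, and the others of ppfr-1 close to it.

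Intervals with more than 1 summit, also looked at after the values had been seen, were rare. In the optimal list 4 regions (0.249%) shared their interval with another, and these 4 were regions 2 to 5 of ppfr-1. The interval of regions 4 and 5 had 903 bp and was the widest of the optimal list, in which 93.2% of the regions had the fixed width of 424 bp. The interval of regions 2 and 3 had 478 bp. Replicate 1 gave regions 4 and 5 a common interval of 851 bp and replicate 2 one of 712 bp, while the intervals of regions 2 and 3 ended within a few bases of each other. Close spacing itself was less unusual, since 7.73% of optimal summits had a neighbour within 250 bp, and the smallest spacing was 199 bp in every list.

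Region 3 lay at the edge of a long TG dinucleotide repeat. The annotated genes F16A11.7 and F16A11.9, a pair of non-coding genes on opposite strands, had the same ends, I:9382980-9383170. Their 191 bp were, apart from the end bases, an uninterrupted TG run of 189 bp (I:9382981-9383169). The summit of region 3 was 8 bp inside the run from its downstream end, seen along ppfr-1, and the pooled summit of region 2 was 60 bp beyond its other end. The 2 summits of that interval therefore flanked the repeat, one within it at its border and the other outside it. Both also lay in anr-20, an antisense RNA gene of 1091 bp (I:9382458-9383548).

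**Figure D4:**
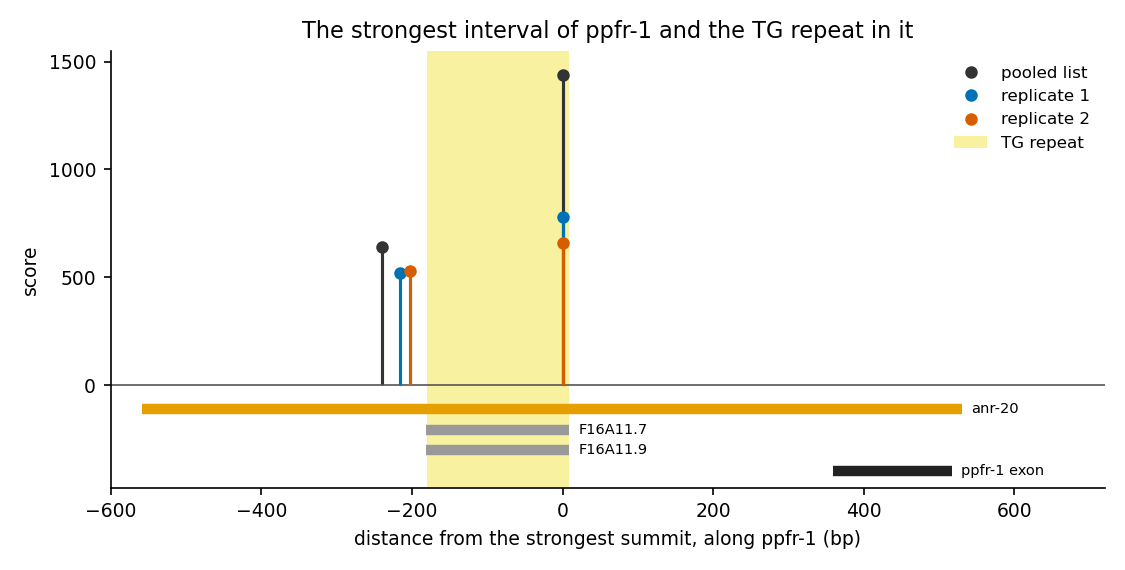
Scores of the summits in the interval of regions 2 and 3 against the distance from the summit of region 3 along ppfr-1 in bp, with the 189-bp TG repeat shaded and the annotated genes drawn below. The 3 lists place region 3 at the same base, and their summits of region 2 lie beyond the other end of the repeat, the replicate summits closer to it than the pooled one.

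Short reads from such a repeat can match many places of the genome. In the 75 bp on each side of region 3, 50% of the 36-base words occurred once in the genome on either strand. The most frequent word occurred at 1151 positions. Overlapping positions within a run were each counted, so this is not a number of separate places. The genome held 49 uninterrupted TG runs of at least 36 bp. In the same window of each of the other 6 regions, 100% of the words occurred once, as in 89.3% of the optimal regions. The share for region 3 was 43.8% with words of 24 bases and 63.7% with 50 bases. Over their whole intervals, 5 of the 7 regions had only single-copy words of 36 bases, and 84.7% of the optimal regions did. In the interval shared by regions 2 and 3, 62.1% of these words occurred once, so the repeat concerns region 2 as well. The sources used here state neither the read length nor the treatment of reads with several matches. The part of the repeat in the scores of regions 2 and 3 was not tested. Region 5, whose window held only single-copy words, had rank 4 in the pooled list. The rank of region 5 does not bear on the part of the repeat in those scores.

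The same repeat was looked for elsewhere in the genome, an analysis chosen after the values had been seen. There were 49 uninterrupted TG runs of at least 36 bp, with a median length of 56 bp, and the run in ppfr-1 was the third longest (the longest had 224 bp). Of the 49 runs, 12 (24.5%) had an optimal summit within 250 bp of any of their bases, and 35 (71.4%) had a pooled summit that near. Single bases that near an optimal summit made up 0.783% of the genome, and those that near a pooled summit 13.9%. A run has many bases, so these shares are not a matched background for runs. Of the 13 runs of at least 100 bp, 4 were near an optimal summit. The run in ppfr-1 is in each of these counts, which the choice of the gene favoured. Seen from the regions, 14 optimal regions (0.873%) lay near a run, of which regions 2 and 3 were a pair. The highest score among those outside ppfr-1 was 382.1 (rank 73). Of the weaker regions, pooled regions that overlap no optimal one, 26 (0.0943%) lay near a run. The other 5 optimal regions of ppfr-1 were not near one.

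The nested genes differed in how near they lay to a summit. mir-71 (I:9379927-9380020, minus strand) began 321 bp downstream of the summit of region 6 in its own direction of transcription, and no pooled summit lay inside it. mir-2 (I:9372768-9372865, minus strand) began 356 bp downstream of the summit of region 7. Both microRNAs are transcribed in the direction of ppfr-1, and in both the summit was on the upstream side. Of the unnamed non-coding genes, F16A11.8 lay 13 bp from region 6, F16A11.13 lay 38 bp from region 4, and F16A11.5, a gene of 2454 bp, began 150 bp from region 7. F16A11.6 overlapped mir-71 on the opposite strand and had region 6 within 500 bp. The snoRNA gene F16A11.12 and the antisense RNA gene anr-25 had no optimal summit within 500 bp, and the nearest lay 2769 and 2036 bp from their 5′ ends. M04C9.9, the nested gene outside the long introns, had its nearest optimal summit 6676 bp away.

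Of the 7 optimal summits of ppfr-1, 2 (regions 2 and 3) lay inside a non-coding gene when piRNA genes are left out. Over all optimal summits this share was 15.5%, and over the weaker regions it was 3.59%. Within 500 bp of such a gene lay all 7, against 33.8% of all optimal and 12.1% of the weaker summits. The members are not independent in this, since regions 1 to 3 had the same nearest gene, anr-20, and regions 4 and 5 had F16A11.13. All 7 summits also lay in the long introns, within or across the edge of which lay 11 non-coding genes. The shares over all regions do not take this into account. Whether the summits lay nearer to such genes than other places of these introns was not tested.

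Outside the optimal list the locus held 13 further pooled regions, with scores of 38.0 to 87.96 and a median of 49.9, near the median of 49.7 over the pooled list. Of the 20 pooled regions 7 were optimal, while 5.41% of all pooled regions were. By position, 15 of the 18 in the gene had their summit in an intron, 14 of them in the long introns, and 3 in a coding exon. The strongest 2 of the 13 inside the gene were 199 bp upstream of region 6 (73.9) and in F16A11.5, 15056 bp from the 5′ end (72.6). The 2 pooled regions of the flanks, with scores of 87.96 and 47.1, lay 4067 and 4270 bp upstream of ppfr-1 in F16A11.1. The next pooled summits beyond the 5 kb limit were 9925 bp upstream (88.1) and 8842 bp downstream (64.6).

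Of the neighbouring protein-coding genes, F16A11.1 held 5 pooled summits in its 10279 bp, part of which lies beyond the flank, and 0 of them were optimal. rtcb-1, which encodes the RNA ligase of tRNA splicing, had 0 pooled summits inside, and so had dyf-5, which encodes a kinase of sensory cilia, and mir-1019, a microRNA gene within the flank. The nearest optimal regions outside the locus were 39598 bp upstream (score 115.0) and 19947 bp downstream (122.1). No other optimal region lay closer to the gene on either side. With 0.0160 optimal summits per kb over the genome, gaps of this length are not unusual for the list.

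The replicates differed most in the weak regions. All 7 optimal regions had a summit within 100 bp in both replicate lists, as did 94.6% of all optimal regions. The optimal list was itself chosen for reproducibility between these replicates, so this agreement and its contrast with the other regions are favoured by that choice. Of the 13 other pooled regions, 7 were found in both replicates, 5 in 1 of them and 1 in neither. Over all pooled regions outside the optimal list, the share found in both was lower, at 32.1%. Among the 1604 highest scores of each replicate list, replicate 1 held 6 of the 7 and replicate 2 held all 7. The corresponding shares over all optimal regions were 80.8% and 78.4%, and 63.2% in both. The region that replicate 1 placed lower was region 1. Replicate 1 alone placed a summit 4418 bp from the 5′ end (38.0) and replicate 2 alone one at 3814 bp (30.2), so the empty first part of the gene in the pooled list held a weak summit in each replicate, at different places.

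The caller also gave a q value, and its −log10 was at the maximum of the optimal list, 2.78, for regions 2 to 6. This value was shared by 19% of the optimal regions. Regions 1 and 7 had 1.79 and 1.81. The q value therefore did not separate the 5 strongest members from one another, and the score did.

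Base composition was similar across the 7. In windows of 151 bp around the summit the GC share was 51.7, 55.6, 49.0, 57.6, 52.3, 51.0 and 56.3% for regions 1 to 7. Their median of 52.3% compares with 47.7% over all optimal regions and 40.4% over the weaker ones, and all 7 were above both. The lowest of the 7 was region 3, at the TG repeat.

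A pair of short words was searched on both strands of the same windows, GAGAGA and GACGC with their reverse complements, which do not contain each other. GAGAGA was found at regions 3, 5 and 6, thus at 3 of 7, and in 34.5% of all optimal and 12.6% of the weaker windows. GACGC was found at 0 of 7, and in 31.4% of the optimal and 13.7% of the weaker windows. With windows of 301 bp, GAGAGA was found at 4 and GACGC at 3 of the 7, against 53.0% and 43.9% of the optimal regions. At the larger width the windows of regions 2 and 3 overlap, and so do those of regions 4 and 5. Region 3, the strongest in every list, had GAGAGA, while region 2, which ranked next to it within ppfr-1 in both replicates, and region 1 had neither word at either width. Words of 12 bases were shared between the windows in 3 of 21 pairs, all among regions 1 to 3, with 1 or 2 words a pair. The 7 regions were therefore not copies of a common sequence at that length.

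Among 19971 protein-coding genes, 450 (2.25%) had an optimal summit inside, and 2 (0.01%) had 7 or more. ppfr-1 was the second by this count. T28B11.1 had 8, zfp-1, which encodes a chromatin protein related to AF10, had 6, and fkh-7, a forkhead transcription factor gene, and let-526, a gene for a subunit of a SWI/SNF chromatin remodelling complex, had 5 each. By the summed score of these regions ppfr-1 was the first with 3850, followed by pqn-41 with 2356 and T28B11.1 with 2271. The 7 regions were 0.436% of the optimal list and held 1.29% of its summed score.

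**Figure D5:**
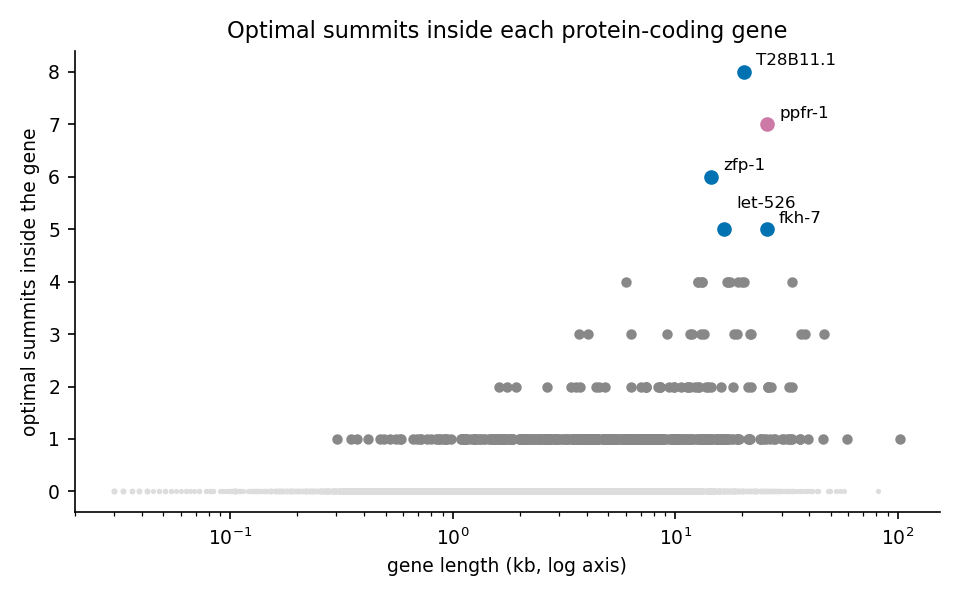
Number of optimal summits inside each protein-coding gene against gene length in kb (log axis), 1 point a gene, with genes of 5 or more summits named. ppfr-1 has 7 summits in 25884 bp, T28B11.1 has 8 in 20258 bp, and most genes have 0.

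Length alone did not come with such a number. ppfr-1 was the 99th longest protein-coding gene, and of the 193 genes of at least 20 kb 151 had no optimal summit. By pooled summits it was 22nd with 18, and the genes of at least 20 kb had a median of 9 (range 0 to 31). Per kb, ppfr-1 held 0.695 pooled and 0.270 optimal summits, against 0.295 and 0.0160 over the genome. The gene thus stood out more in strong regions than in the number of all regions, which the choice of the gene already favours.

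The introns were compared in the same way. Of the 502 introns of at least 5 kb, 74 (14.7%) held an optimal summit and 13 (2.59%) held 3 or more, both long introns of ppfr-1 among them. zfp-1 was the other gene with a pair of such introns, though each of those was shorter than 5 kb. The intron with the most optimal summits was in T28B11.1 and held 6. By windows of 4 kb beginning at a summit, the highest count was 6 optimal summits, and 1 window had it, that of regions 1 to 6 of ppfr-1. Of the 4 windows with 5, 1 was nested in it, and the other 3 overlapped one another on chromosome V.

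The 3 other region clusters set beside it differed from it in number of regions and in highest score. T28B11.1 with 5 kb on each side held 9 optimal regions, spread over 17760 bp, the strongest with a score of 793.0. icl-1, a gene for the enzyme of the glyoxylate cycle, held 9 within 7486 bp, 3 of them inside the gene, with a highest score of 350.8. saeg-1 held 6 within 10409 bp, 4 of them inside, with a highest score of 385.4. In each of these clusters no optimal region had the same start and end as another, and in ppfr-1 the 7 regions had 5 distinct intervals. Different intervals can still overlap, and 124 of the 1604 optimal regions overlapped another. The share found in both replicates was 7 of 7 for ppfr-1, 7 of 9 for T28B11.1, 8 of 9 for icl-1 and 6 of 6 for saeg-1.

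Genes for other phosphatase subunits were looked up in the same way. Of 20 listed genes for catalytic and regulatory subunits of protein phosphatases 1, 2A, 4 and 6, 2 had an optimal summit inside or within 500 bp of a start, against 4.85% of all protein-coding genes. These were ppfr-1 and gsp-2, a catalytic subunit gene of phosphatase 1, with 1 region at its start (141.2, rank 924). Since ppfr-1 was chosen for its optimal regions, its place in this count was fixed in advance. Among the other listed genes only gsp-2 was counted, so the count shows no excess for phosphatase genes. pph-4.1, the gene for the catalytic partner of PPFR-1, had 2 pooled summits with a highest score of 52.5, and smk-1, another phosphatase 4 regulatory subunit gene, had 8 with a highest score of 107.4. Those of pptr-2 and gsp-1 reached 101.2 and 81.3. Of the 20 genes 14 had some pooled summit, and 54.8% of all protein-coding genes had one. ppfr-2 and ppfr-4, the other genes named as phosphatase 4 regulatory subunits, had 0 in the pooled list.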

How the data were processed

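The authors deposited 4 peak lists in narrowPeak format on build ce11. Per the deposited README text, relaxed lists of peaks and background were made from the alignments of each replicate, or of both, with 1 control, and the optimal list holds those that passed a threshold on the irreproducible discovery rate between replicates. The aligner is not given in the sources used here, nor are the peak caller, its threshold and the read totals, so depth is unknown and no count interval is given. Alignments, the control and signal tracks were not used. The score is the signal value of the authors' caller, and further deposited columns give the −log10 of its q value and the offset of the summit. A score describes and ranks regions within a list.

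Genes, exons and sequence were those of RefSeq for WBcel235, with coordinates from 1. Summits were placed against merged exons of all transcripts, and summits of 2 lists were matched within 100 bp. Weaker regions are pooled regions that overlap no optimal region. Words were counted in both strands of windows of 75 bp on each side of the summit. Scripts used Python 3.11.15, numpy 2.4.6, pandas 2.3.3 and matplotlib 3.10.9, and were tested on simulated data. With 1 group there was no comparison between conditions and no test.

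Genes were named by rule: ppfr-1, genes overlapping it or its 5 kb flanks, the phosphatase list, the 5 genes with the most optimal summits inside, T28B11.1, icl-1 and saeg-1, and genes beside regions next in rank. Members and lists were chosen with earlier results of these data known.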

Additional observations from a re-analysis of the deposited data

How the results depend on the processing

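Of 40 alternative settings of 10 results, 32 left the value within 1.5 times. The number of optimal regions was 7 with flanks of 2 or 10 kb, and 5 in the higher-scoring 802 regions or with summits within 500 bp merged. With the highest-scoring 1604 regions of a single replicate in place of the optimal list it ranged from 6 to 7. The rank of ppfr-1 among genes, 2 by count, was 1 by summed score and 27 by optimal summits per kb among genes with at least 2, and ranged from 1 to 2 when either replicate was left out. GACGC was found at 3 regions with 150 bp on each side and at 0 with 75 bp. The number of phosphatase genes, 2, became 1 when only starts or only the stricter list counted, 14 with all pooled regions, and 3 to 4 when either replicate was left out. The cause was not tested. No paired analysis was possible because there was 1 group and no test. Unknown depth and the unstated division of signal between adjoining summits limit how finely scores can be compared.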
